A study of Mus musculus with 8 samples.

Results

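Short and long DNA recovered with H2A.X from wild-type cells were compared by the adenines called as modified in each. All 7142 lines of the wild-type list from the short DNA (S) were set against all 3862 lines of the wild-type list from the long DNA (L), with no selection by value. These 11004 called adenines, each here called a site, were 63.2% of the 17418 in the 4 lists of the series. The material was TT2, a mouse embryonic stem (ES) cell line whose strain background is a cross of C57BL6 with CBA. The cells were wild type, between passage 5 and 10, and grown with no feeder layer. Chromatin was immunoprecipitated without crosslinking (native ChIP) with a custom antibody against H2A.X, and the recovered DNA was divided into S and L before single-molecule real-time (SMRT) sequencing. No source used here gives the DNA lengths that divide S from L. No input or control antibody list was used, so neither list shows what H2A.X chromatin holds beyond the rest of the genome. Each group had 2 replicates by the labels, but both point to 1 list per group, so no difference below has a replicate check and no p-value was computed. Intervals are exact 95% intervals for counting error, they treat sites as independent, and S and L are said to stand apart where the intervals do not overlap.

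N6-methyladenine (N6mA) is adenine with a methyl group on its exocyclic nitrogen. It is common in bacterial DNA and rare in mammalian DNA, where its amount is debated. SMRT sequencing reads it from the time a polymerase waits before it adds the next base opposite the template base, the inter-pulse duration (IPD), which a methyl group lengthens. H2A.X is a histone H2A variant whose phosphorylated form marks chromatin around DNA breaks. The mouse major satellite is a tandem repeat next to the centromeres, present in very many copies of which genome assemblies hold few.

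Each site came with its coverage (the number of reads or passes over the base), an IPD ratio (observed over predicted duration), a score of at least 20, an identification score for the match to N6mA and, at coverage of 11 or more, an estimated modified fraction. A list holds called bases alone and gives no depth for any other base. Whether S holds more sites because more adenines were modified or because it was read more deeply cannot be told apart.

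The bases that recurred in both lists lay almost wholly in repeats, and their sequences are shown first because the overlap of S and L rests on them. The called adenine is in capitals in each 41-base context, which is written 5′ to 3′ on the strand of that adenine (mm10). The first 3 had the highest identification scores of all S sites, and the last 2 were called in both lists outside the 100 kb windows with 10 or more sites.
chr14:19417706-19417746, minus strand: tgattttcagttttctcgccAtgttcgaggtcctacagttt
chr14:19417991-19418031, plus strand: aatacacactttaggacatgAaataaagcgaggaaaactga
chr2:98666756-98666796, plus strand: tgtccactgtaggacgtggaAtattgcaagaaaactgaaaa
chr9:35305272-35305312, plus strand, in the lncRNA gene Gm33838: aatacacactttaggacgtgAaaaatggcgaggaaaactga
chr6:103649274-103649314, plus strand, in Chl1: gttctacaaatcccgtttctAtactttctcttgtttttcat
The second and the fourth come from different chromosomes, and 37 of their 41 bases are equal when the called adenines are aligned. All 5 were called in S and in L.

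The next sequences show the other kind of site, tight groups of called adenines that occurred in 1 list only. They are the 3 tightest groups of 4 or more sites in each list away from crowded windows, printed on the plus strand with each called adenine, or the T opposite a called adenine of the minus strand, in capitals.
S, chrY:67805672-67805717: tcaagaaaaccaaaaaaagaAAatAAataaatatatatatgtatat
S, chr7:113209229-113209283, in Arntl: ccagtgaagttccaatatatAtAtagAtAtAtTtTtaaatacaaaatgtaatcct
S, chr5:67557535-67557584: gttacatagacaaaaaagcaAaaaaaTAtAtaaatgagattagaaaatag
L, chr9:81683171-81683220: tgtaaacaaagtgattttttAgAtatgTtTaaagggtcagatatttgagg
L, chr3:75500139-75500202: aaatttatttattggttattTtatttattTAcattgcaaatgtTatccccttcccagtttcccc
L, chr10:97199185-97199269, in Gm8613: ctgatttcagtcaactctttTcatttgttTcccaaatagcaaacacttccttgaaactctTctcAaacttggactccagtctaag
From the first to the last called base, A and T made up 100%, 93.3% and 100% of the S stretches and 80%, 83.3% and 64.4% of the L stretches, in the order shown. These groups were picked for their tightness, so the composition describes them and not the lists.

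Both lists were spread over the whole genome, and each left most windows of 100 kb without a site. S held 1.85 times as many sites as L, which was 64.9% of the sites of both together (64.0% to 65.8%). At a scale of 10 Mb, 279 of 285 windows held sites of both lists. At 1 Mb, S had a site in 2227 of 2732 windows, L in 1744 and both in 1492. At 100 kb, S had a site in 4858 of 27227 windows (17.8%) and L in 2848 (10.5%). Windows with both numbered 570, which was 11.7% of the S windows and 20.01% of the L windows. These shares lay little above the 10.5% and 17.8% of all windows that held an L or an S site. The lists thus covered the same chromosomes, and at 100 kb a site of one list changed the share with a site of the other little.

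The share of sites that came from S differed little between chromosomes. Windows of 100 kb in which either list had at least 10 sites, called dense windows below, were left out of this comparison. Of the remaining 10069 sites, 65.3% came from S (64.3% to 66.2%). Chromosome 1 had the lowest share, 61.3% (638 S and 402 L sites, 58.3% to 64.3%). Chromosome 12 had the highest, 70.3% (319 and 135 sites, 65.8% to 74.4%), and chromosome 16 followed at 70.2% (236 and 100 sites, 65.0% to 75.1%). The intervals of chromosomes 12 and 16 stood apart from that of chromosome 1, while the other chromosomes overlapped with it. Chromosome X (165 and 89 sites, 65.0%) and chromosome Y (71 and 36 sites, 66.4%) held S and L sites in about the proportion of the whole.

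**Figure D1:**
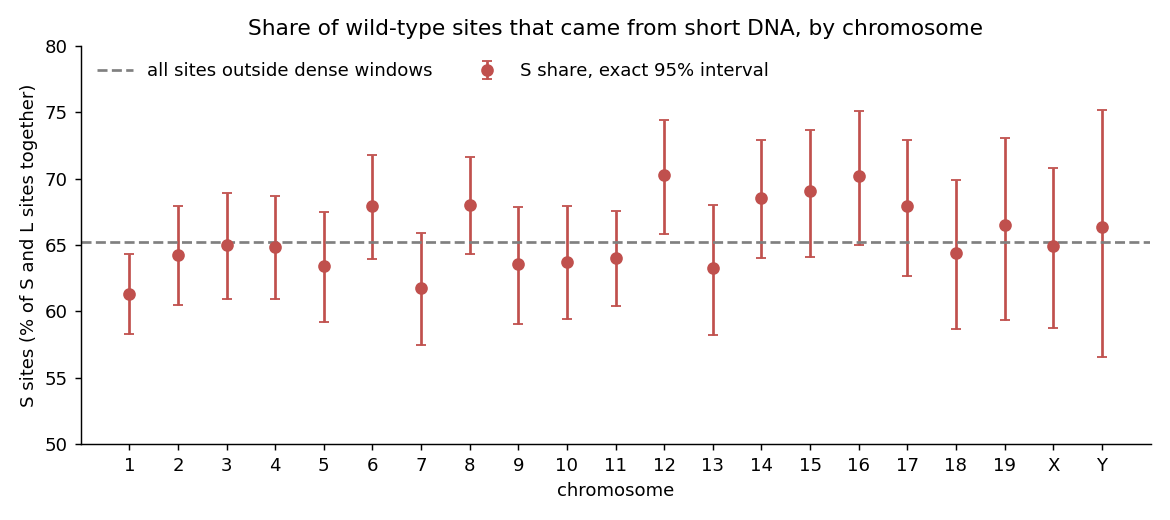
Share of the wild-type sites outside dense windows that came from S (y axis, percent of S and L sites together) on each chromosome (x axis). Points are shares, bars are exact 95% intervals, and the dashed line is the share over all of these sites, 65.3%. Chromosome 1 lies lowest at 61.3% and chromosome 12 highest at 70.3%, and the y axis starts at 50%.

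Some places rich in one list were empty or nearly so in the other, and others were rich in both. Outside dense windows, chromosome 8 from 123 to 124 Mb held 14 S sites and 2 L sites, and chromosome 8 from 120 to 121 Mb held 12 and 0. Chromosome 13 held 11 and 0 between 21 and 22 Mb and 0 and 9 between 15 and 16 Mb. Chromosome 1 held 3 S and 9 L sites between 190 and 191 Mb. Mixed places included chromosome 11 from 98 to 99 Mb, with 9 S and 7 L sites, and chromosome 1 from 88 to 89 Mb, with 6 and 7. These windows were the extremes of many, and most of their sites can sit in a single tight group, so they describe single places and not domains.

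Dense windows numbered 8, and they held 7.99% of the S list (571 sites, 7.38% to 8.65%) and 9.43% of the L list (364 sites, 8.52% to 10.4%), intervals that overlapped narrowly. The share stood apart, lower in S, with windows of 20 or more sites (7.50% and 9.35%), and at a coverage of 25 or more it was 38.8% of S and 73.3% of L. The largest were the unplaced contig JH584304, with 250 S and 185 L sites in its 2 windows together, and the start of chromosome 9, with 195 and 97. Chromosome 14 from 19.4 to 19.5 Mb held 63 and 55, and chromosome 2 from 98.6 to 98.7 Mb held 28 and 24. The remaining dense windows reached 10 sites in S alone, so the rule that picked them fixed their excess of S, the longer list. Chromosome 7 held 11 S sites and 0 L sites between 100073903 and 100074190, in 1 run of 288 bases. Contig GL456392 held 14 and 2, the S sites in 1 run of 1220 bases. Chromosome 8 from 83.6 to 83.7 Mb held 10 and 1. In the dense windows the commonest distances between same-strand sites of one list were 234 bases (25 pairs) and 468 bases (25 pairs) in S and 468 bases (14 pairs) in L, where 234 bases was found for 11 pairs. The major satellite has a unit of 234 bases.

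Sites in dense windows had high coverage and a low IPD ratio in both lists. Median coverage was 105 in S (91 to 117) and 85 in L (76 to 94), against 13 and 10 at the other sites. The median IPD ratio was 1.86 in S (1.78 to 1.91) and 1.855 in L (1.80 to 1.90), against 2.63 and 2.65 elsewhere. The modified fraction had a median of 30.4% in S and 28.7% in L. The plus strand carried 35.0% of these sites in S (31.1% to 39.1%) and 35.4% in L (30.5% to 40.6%), while elsewhere it carried 49.6% and 51.1%. The imbalance between strands was thus as large in L as in S.

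Outside dense windows, S sites lay closer to one another than L sites did. Another site of the same list within 50 bases was found for 16.9% of S sites (16.04% to 17.9%) and 11.1% of L sites (10.0% to 12.2%). Within 1 kb the shares were 29.0% (27.9% to 30.1%) and 23.4% (22.05% to 24.9%). The nearest site of the same list was over 100 kb away for 44.9% of S sites and 60.1% of L sites, so close groups and isolated sites made up most of both lists. S had 6571 sites there and L 3498, and at the scale of 100 kb the longer list has closer sites by its number alone. A difference at this scale beyond the number of sites was not tested.

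The share with a close neighbour rose with coverage in both lists, and S had the higher coverage. At a coverage of 6 to 7 a neighbour within 50 bases was present for 4.70% of S sites and 4.27% of L sites. At 8 to 10 the shares were 8.99% and 6.60%, at 11 to 15 they were 13.8% and 13.2%, and at 16 to 25 they were 22.9% and 21.4%. At 26 to 50 they were 37.6% (33.96% to 41.3%) and 32.2% (22.8% to 42.9%). S was the higher in each of these 5 classes, but the intervals of S and L overlapped in all of them. Over the whole lists, dense windows included, the S excess of 5.88 percentage points turned to -0.21 at a score of 30 or more and to -1.71 at a coverage of 25 or more.

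The length of the gaps differed in another way: gaps of over 200 bases were a larger share of the gaps in L. Outside dense windows S had 1100 gaps of at most 1 kb between neighbouring sites and L had 456. The median gap was 36.5 bases in S (33 to 43) and 61 bases in L (44 to 74). Gaps over 200 bases made up 7.27% in S (5.81% to 8.97%) and 16.9% in L (13.6% to 20.6%), and gaps over 300 bases made up 1.91% and 6.80%. The longest 10% of gaps began at 174 bases in S and at 265 bases in L. By contrast, gaps of at most 10 bases were 28.2% in S (25.5% to 30.9%) and 23.5% in L (19.6% to 27.6%), which overlapped.

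This larger share of longer gaps in L was clearest at low coverage. Where the first site of a pair had a coverage of 6 to 10, gaps over 200 bases were 10.8% of 176 in S (6.63% to 16.3%) and 23.6% of 157 in L (17.2% to 31.0%). At 11 to 15 they were 10.5% of 258 and 19.3% of 145, and at 16 to 25 they were 5.20% of 404 and 9.24% of 119, with overlapping intervals in both classes. Above 25 they were 4.96% of 262 and 2.86% of 35, where L rests on a single gap. The part that the length of the sequenced DNA plays in these gaps was not tested.

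**Figure D2:**
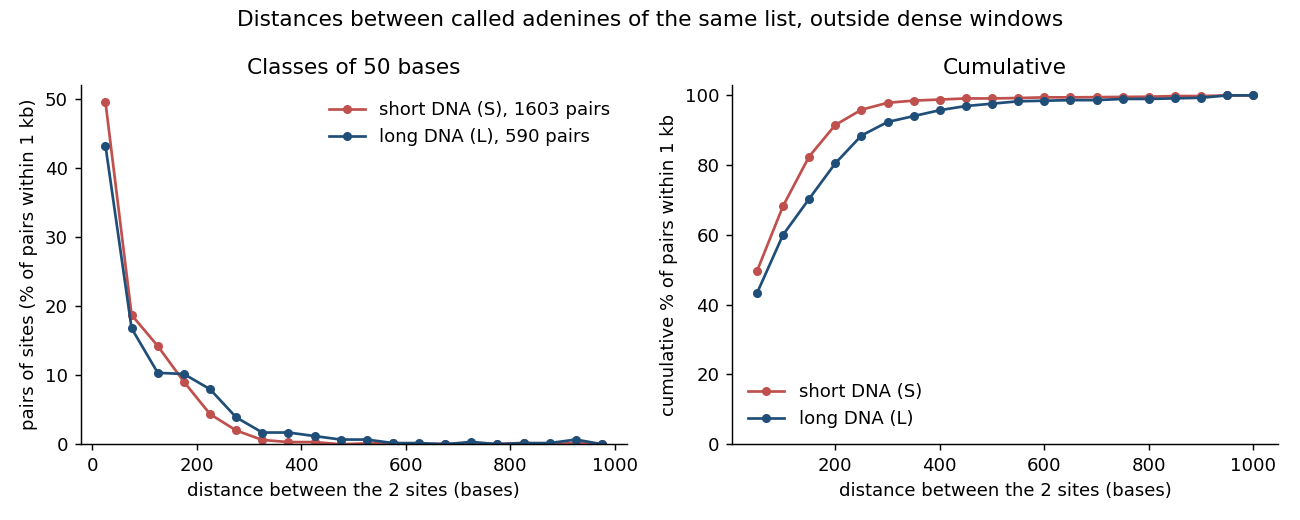
Distances between pairs of sites of one list that lie at most 1 kb apart (x axis, bases), outside dense windows, as the percent of such pairs in classes of 50 bases (left) and cumulatively (right). In S 91.5% of 1603 pairs lie within 200 bases, and in L 80.5% of 590 pairs do.

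Sites were joined into runs where neighbours of the same list were at most 1 kb apart. Outside dense windows S had 805 runs of 2 or more sites, with 1905 sites in them, and L had 364 runs with 820 sites. Single sites numbered 4666 and 2678. Runs of 3 or more sites numbered 185 in S and 64 in L, runs of 5 or more 24 and 6, and the largest held 9 and 8 sites. A run spanned a median of 71 bases in S (62 to 82) and 89.5 bases in L (76 to 106). Spans over 200 bases were 11.1% of runs in S (8.97% to 13.4%) and 23.4% in L (19.1% to 28.0%). Spans over 300 bases were 3.11% and 10.2%.

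The sites of a run resembled each other in coverage. The highest coverage in a run was a median of 1.14 times the lowest in S and 1.125 times in L, and it was within 1.5 times in 83.1% and 86.3% of runs. All sites were on one strand in 57.8% of S runs and 55.5% of L runs. Neighbours exactly 2 bases apart were the commonest of the very short gaps in both lists, 76 in S and 26 in L, and 72 and 25 of these were on the same strand. Sites in runs had a higher median coverage than single sites, 17 against 12 in S and 12 against 9 in L. Their median IPD ratio was 2.52 against 2.68 in S and 2.59 against 2.67 in L.

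The largest runs were found in different places in S and L. In S, 9 sites lay within 138 bases on chromosome 3 (103230686 to 103230823, coverage 20 to 35) and 9 within 185 bases on chromosome 8 (120903590 to 120903774, coverage 25 to 31), neither in a gene. Pcnx2, the gene of a pecanex membrane protein, held 8 S sites within 292 bases on chromosome 8. The 7 S sites in Arntl, the gene of a clock transcription factor, are in the second of the tight groups printed above: they lay within 15 bases, at a coverage of 15 to 16. Their IPD ratios ran from 2.15 to 7.64, with a median of 4.39. Sh3d19, the gene of an SH3-domain protein, held a run of 6 S sites within 163 bases, all on the plus strand, and Gm40847 held 6 within 158 bases on both strands.

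In L the largest run was 8 sites within 226 bases on chromosome 6 (122503907 to 122504132, coverage 9 to 15), outside genes. Wdr26, the gene of a WD-repeat protein, held 6 L sites within 256 bases on chromosome 1 (181202986 to 181203241, coverage 12 to 17), and no S site. Thra, the thyroid hormone receptor alpha gene, Gm8613 and Atp8a2, the gene of a phospholipid flippase, held runs of 4 L sites. The 4 L sites within 10 bases on chromosome 9, the first L group printed above, had a median IPD ratio of 4.89 at a coverage of 11 to 16. Of the 12 largest runs in each list, only those in Gm33838 had a site of the other list within 1 kb.

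**Figure D3:**
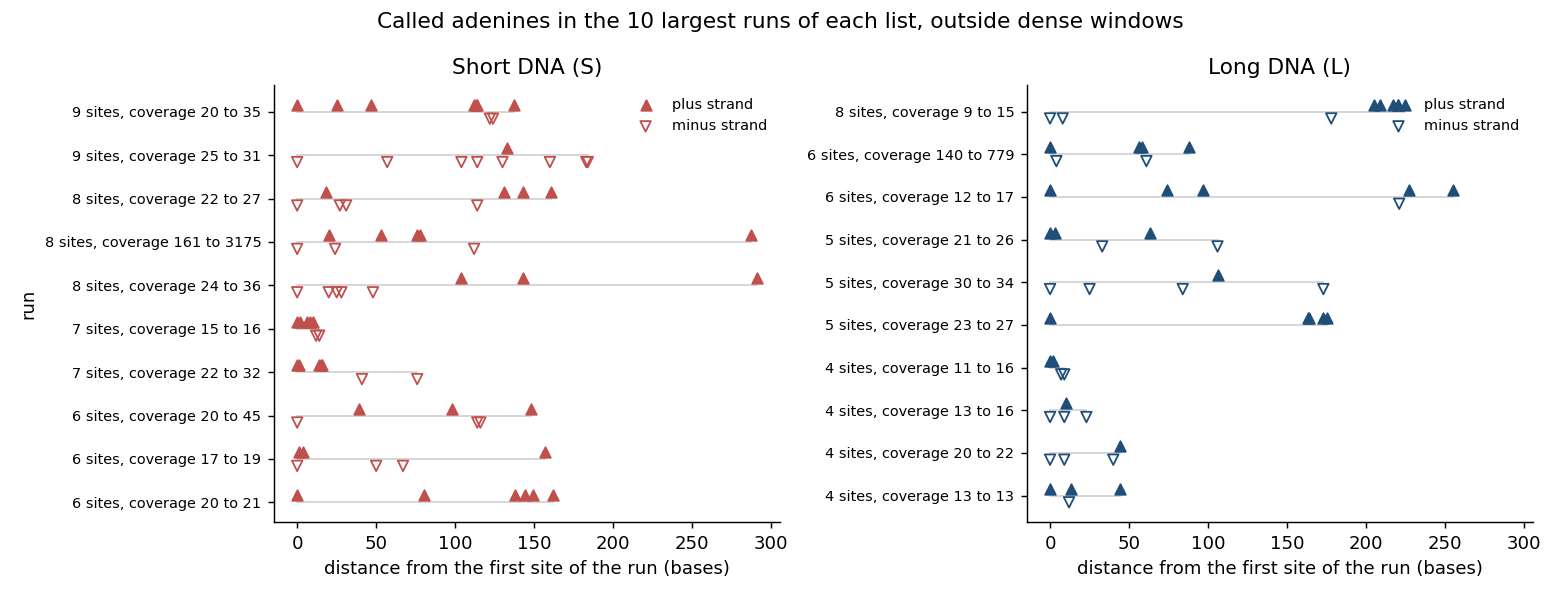
Called adenines in the 10 largest runs of S (left) and L (right) outside dense windows, each row a run, with the distance from its first site on the x axis (bases). Filled triangles are sites on the plus strand and open triangles on the minus strand, and each row is labelled with its number of sites and the range of their coverage. The largest runs hold 9 sites in S and 8 in L, and coverage exceeds 100 in the Gm33838 run of each list and in no other run shown.

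Outside dense windows few sites of one list lay near a site of the other. Both lists are sparse, and no share for other places was computed beside the counts that follow. An L site had an S site within 1 kb in 38 of 3498 cases (1.09%), and an S site had an L site that near in 39 of 6571 (0.594%). With the lists joined, 25 of 1181 runs held sites of both (2.12%, 1.37% to 3.11%), and 17 of the 25 lay in genes. Gm33838 had 8 S and 6 L sites in such a run, and Sox5, a transcription factor gene, had 1 and 3. Klf7, a Krüppel-like factor gene, had 2 and 1. Aff3, the gene of a nuclear regulator, and Mgat5, the gene of a glycosyltransferase, had 1 and 1 each. Most of these mixed runs thus joined 1 or 2 sites of each list.

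The same base on the same strand was called in both lists 170 times, 2.38% of the S list and 4.40% of the L list. Of these bases 164 lay in dense windows, where they were 28.7% of S sites (25.04% to 32.6%) and 45.1% of L sites (39.9% to 50.3%). The other 6 were 0.0913% and 0.172% of the sites outside. In the dense windows the share of L sites that were called in S rose with coverage in L, from 19.2% of 26 sites at 6 to 24 to 39.2% of 181 at 25 to 99 and 56.1% of 157 at 100 or more. Of L sites there with an identification score of 50 or more, 42 of 54 were called in S (77.8%, 64.4% to 88.0%). Of S sites there with such a score, 57 of 104 were called in L (54.8%, 44.7% to 64.6%).

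The 6 shared bases outside dense windows also had repeat sequence. They were not 6 separate places: those on chromosome 9 all lay between 35305236 and 35305294, in Gm33838. The others were in Chl1 and on contig GL456389. Each context shared 7 to 19 of its 12-base words with the contexts of the 5 dense windows that hold bases called in both lists. The word rule was chosen after these bases were seen, so it describes them and tests nothing.

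At the shared bases S had the higher coverage, while the IPD ratio differed little. Coverage was a median of 1.49 times as high in S (1.41 to 1.56), and it was higher in S at 139 of the 170. The IPD ratio in S minus that in L had a median of -0.04 (-0.08 to 0.01), it was higher in S at 73 bases, and it differed by at most 0.2 at 96. The modified fraction in S minus that in L had a median of -1.3 percentage points (-3.6 to 0.8, 168 bases with a fraction in both). Over the bases, Spearman's rho between S and L was 0.878 for coverage, 0.733 for the IPD ratio, 0.779 for the fraction and 0.481 for the identification score. Among called sites the IPD ratio and the fraction fell as coverage rose in both lists. The part of their rho that coverage carries was not tested. All 4 values of rho are descriptions, since the bases come from a few repeats and the same libraries and are not independent.

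The very highest identification scores of each list were at bases called in both, but high scores as a group recurred only in part. Outside dense windows, 5 of 40 S sites with a score of 50 or more were called in L (12.5%). Of such L sites, 4 of 10 were called in S. The recurring bases of both counts lay in a single run in Gm33838 and in Chl1, places with repeat sequence by the word rule above. The highest IPD ratios did not recur: the maximum was 131.12 in S and 73.56 in L, against 4.25 and 5.93 at the bases called in both. The first printed site, on chromosome 14 at 19417726, had the highest identification score of each list. In S its coverage was 569, its IPD ratio 3.50, its fraction 91.8% and its identification score 552, and in L these were 384, 3.16, 81.9% and 333. The base at 19418011 on chromosome 14 had a coverage of 664 and an IPD ratio of 1.64 in S, and 432 and 1.45 in L. The base on chromosome 2 at 98666776 had a coverage of 9781 and an IPD ratio of 1.72 in S, and 5329 and 1.68 in L. In Gm33838 the base at 35305292 had IPD ratios of 2.32 and 2.31 and fractions of 64.1% and 63.6%, at a coverage of 1509 in S and 425 in L. In Chl1, the gene of a neural cell adhesion molecule, the base at 103649294 had an IPD ratio of 2.39 in both lists at coverages of 237 and 114, with fractions of 44.8% and 47.7%. By contrast, an S site on chromosome 14 at 60684139, in Spata13 and Gm41165, had an IPD ratio of 7.22 and an identification score of 122 at a coverage of 33, and it was not called in L. This site was singled out after its values were seen.

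**Figure D4:**
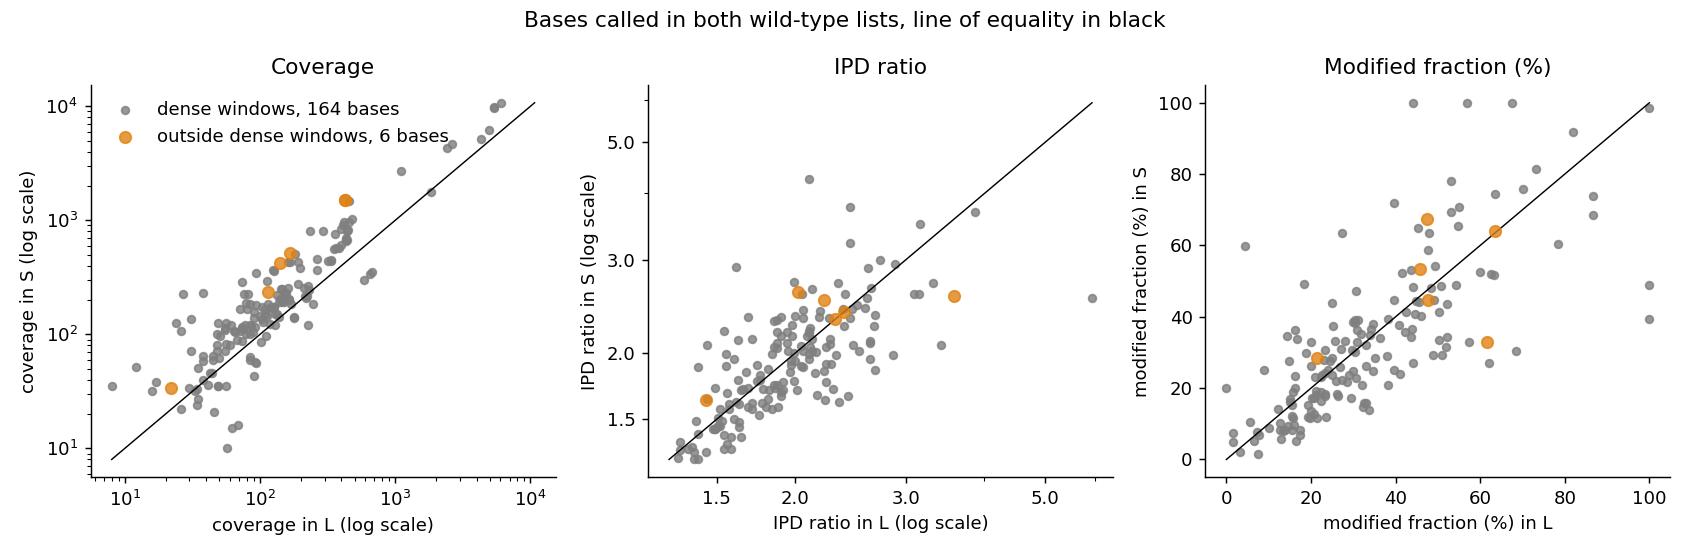
Coverage, IPD ratio and modified fraction of the bases called in both lists, in L (x axis) against S (y axis), with log axes for the first 2 panels and the line of equality in black. Grey points are 164 bases in dense windows and orange points the 6 others. Coverage is higher in S at 139 of 170 bases, and the IPD ratio lies on both sides of the line.

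The bases next to the called adenine had overlapping shares in S and L. Of the 16 contexts made by the base before and the base after the adenine, 0 had intervals that stood apart (0%), with or without dense windows. CAT, the context with the largest excess, made up 10.6% of S sites (9.87% to 11.3%) and 10.4% of L sites (9.49% to 11.4%), which was 2.11 and 2.10 times its share among all further adenines in the 41-base contexts. TAT was 7.18% and 7.90%, or 1.44 and 1.65 times that share. AAA, the commonest context, was 11.7% and 11.9%, or 0.632 and 0.648 times, and AAC was 0.455 and 0.537 times. An adenine followed by G made up 21.1% of S and 21.2% of L sites. S and L thus had the same leading and the same depleted contexts, with values that overlapped.

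Farther from the called adenine, a few single positions differed outside dense windows. Over 40 positions and 4 bases, 4 of 160 base shares had intervals that stood apart (2.5%). A at 14 bases after the called adenine was 29.6% in S (28.5% to 30.7%) and 32.8% in L (31.3% to 34.4%). G at 12 bases after it was 18.9% and 21.4%, C at 4 bases after it was 22.2% and 19.8%, and C at 5 bases before it was 21.5% and 19.01%. No adjustment was made for the number of values compared. The context outside dense windows had a median GC content of 41.5% in both lists, and a CpG lay in 28.8% of S contexts (27.7% to 29.95%) and 26.99% of L contexts (25.5% to 28.5%), which overlapped.

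Equal overall IPD ratios went with a difference at low coverage. The median IPD ratio was 2.56 in S (2.53 to 2.59) and 2.56 in L (2.53 to 2.60). At a coverage of 6 to 7 it was 3.14 in S (3.03 to 3.23) and 2.84 in L (2.76 to 2.91), and at 8 to 10 it was 3.07 (2.99 to 3.14) and 2.81 (2.74 to 2.87). The intervals stood apart in both classes. From 11 to 15 the medians were 2.71 (2.66 to 2.76) and 2.62 (2.55 to 2.69), which overlapped, and from 16 to 25 they were 2.39 and 2.35. The overall medians were equal while S had more of its sites at high coverage, where IPD ratios of called sites were lower: coverage of 11 or more was reached by 69.5% of S sites and 51.1% of L sites.

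The modified fraction overlapped over all sites. In the whole lists, dense windows included, it stood apart, higher in S, at a high score or coverage. At a score of 30 or more the median was 81.4% in S (78.3% to 83.9%) and 67.4% in L (61.7% to 73.2%), and at a coverage of 25 or more it was 39.7% (38.2% to 41.6%) and 31.7% (29.9% to 34.1%). Over all sites with a fraction, the median was 68.0% in S (66.3% to 69.4%) and 65.8% in L (63.7% to 67.8%). At 11 to 15 it was 85.6% and 81.9%, and at 16 to 25 it was 67.8% (65.4% to 70.0%) and 62.4% (58.2% to 65.5%), a narrow overlap. Dense windows, where fractions were low, held 38.8% of S and 73.3% of L sites at a coverage of 25 or more. At a score of 30 or more they held 19.2% and 29.5%. Outside dense windows the order over all sites turned, with 72.8% in S and 74.0% in L, and the intervals overlapped. There the medians were 85.6% and 81.9% at 11 to 15, and 68.0% and 63.75% at 16 to 25. At 26 to 50 they were 47.0% (44.6% to 49.8%) and 48.25% (43.7% to 51.6%). The intervals overlapped in each of these classes.

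A larger share of S sites than of L sites matched N6mA well. An identification score of 20 or more was reached by 16.2% of S sites (15.4% to 17.1%) and 11.9% of L sites (10.9% to 12.9%). The share rose with coverage in both lists. It was 7.50% in S and 7.90% in L at a coverage of 8 to 10, 11.6% and 9.79% at 11 to 15, 17.4% and 13.96% at 16 to 25, and 25.7% and 18.3% at 26 to 50. Above 500 it was 75.4% and 78.3%, and the intervals of S and L overlapped in every class of coverage. Over the whole lists, dense windows included, the S minus L difference of 4.31 percentage points turned to -2.11 at a coverage of 25 or more. Outside dense windows the share at 26 to 50 was 24.8% in S (21.6% to 28.2%) and 17.8% in L (10.5% to 27.3%). At 8 to 10 L was the higher there, with 7.94% against 7.53% in S.

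**Figure D5:**
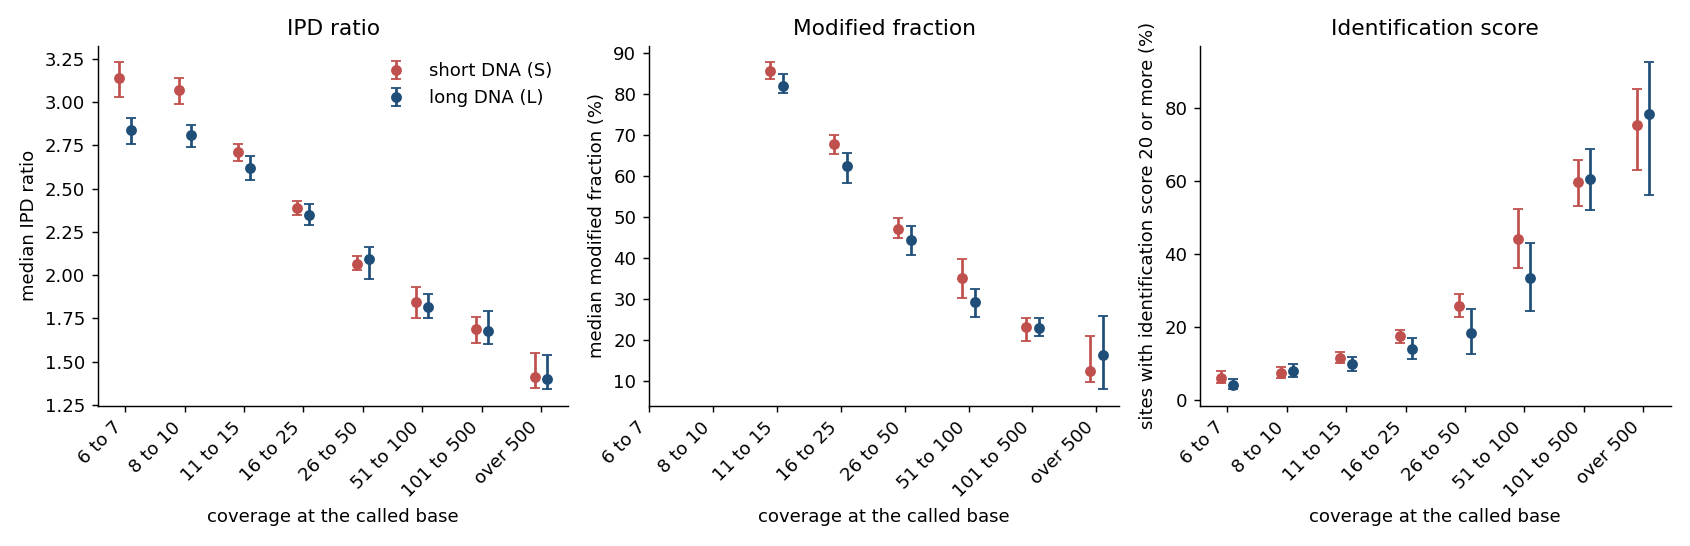
Median IPD ratio (left), median modified fraction (middle, given from a coverage of 11) and share of sites with an identification score of 20 or more (right) by class of coverage (x axis) in S and L. Points are medians or shares and bars are exact 95% intervals for counting error. At a coverage of 6 to 7 the median IPD ratio is 3.14 in S and 2.84 in L, and above 500 it is 1.41 and 1.40.

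Over all sites the shares of S and L in genes overlapped, but not at high coverage. On the assembled chromosomes 50.2% of S sites (49.0% to 51.4%) and 50.4% of L sites (48.7% to 52.0%) lay between the start and end of a gene, while genes covered 45.8% of these chromosomes. At a coverage of 25 or more the shares stood apart, 39.6% in S (36.7% to 42.6%) and 18.3% in L (14.05% to 23.3%). Dense windows entered this comparison, and the shares at this coverage without them were not computed. Protein-coding genes held 42.2% and 42.1%, and lncRNA genes 8.19% and 8.18%. The annotation was used without exons, so sites are said to lie in a gene and no more. Of 49943 genes, S had a site in 2479 and L in 1525. Both lists had a site in 419 genes, which was 16.9% of the S genes and 27.5% of the L genes. Each share was above the share of all genes that held a site of the other list. Gene length was not matched in this comparison.

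Genes with many sites in one list and none in the other were mostly genes of S, the longer list. Of 184 genes with 4 or more sites in all, 63 held S sites only (34.2%) and 8 held L sites only (4.35%). In 24 of the 63 and 3 of the 8, all sites were in a single run, so that 1 tight group made the difference. With a run counted as 1 site, 80 genes had 4 or more, and 9 of them held S sites only and 0 L sites only. The 63 genes had a median length of 160 kb and the 113 genes with sites of both lists had one of 455 kb.

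The genes with most S sites held spread sites, tight groups or both. Tcra, the T cell receptor alpha locus (chromosome 14, 52427967 to 54224198), had 13 S and 2 L sites, the S sites in 8 runs or single sites. Its largest group was 3 S sites within 23 bases. Auts2 (chromosome 5, 131437333 to 132543220) had 8 and 1, with 5 of the 8 S sites within 240 bases. Inpp4b, a phosphoinositide phosphatase gene (chromosome 8, 81342266 to 82134312), had 8 and 1, with 3 S sites within 106 bases. Sox5 (chromosome 6, 143828425 to 144782287) had 8 and 3, and no pair of its S sites was within 1 kb.

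Genes with most L sites included several that had as many S sites or nearly so. Csmd1 (chromosome 8, 15892538 to 17535385), the gene of a large membrane protein, had 7 S and 6 L sites, Ptprd, a receptor phosphatase gene, had 6 and 5, and Cdh13, a cadherin gene, had 4 and 5. Sgcz, a sarcoglycan gene (chromosome 8, 37517840 to 38661705), had 1 S and 6 L sites. Dpp6, the gene of a potassium channel subunit, had 2 and 5, and Atp8a2 (chromosome 14, 59647531 to 60086914) had 2 and 6. B230307C23Rik had 0 and 5, of which 4 were within 178 bases. These genes were ranked by their counts, so the counts describe them and carry no test.

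Most gene groups held too few sites to set their share of S against the 64.9% of the whole lists. The 7 antigen receptor loci held 34 S and 9 L sites (79.1% S, 64.0% to 89.96%), with 12 and 5 in Igk and 5 and 1 in Igh. The 34 very long neuronal genes held 113 and 58 (66.1%, 58.5% to 73.1%). Of their members with 4 or more sites, 2 of 22 held S sites only and 0 L sites only, against 34.2% and 4.35% of all such genes. Length and number of sites were not matched here. Among all such genes, those with S sites only had a median length of 160 kb, and those with both had 455 kb. The 20 DNA damage response genes held 9 and 1, with 3 and 0 in Atm, which encodes a kinase of the break response, and 3 and 1 in Rad50, a gene of the break-end complex. The 25 imprinted genes held 8 and 3, with 2 and 0 each in Peg10, Rian and Kcnq1. The 26 genes of enzymes that write, erase or oxidise DNA and adenine methylation held 3 and 3, with 1 and 2 in Fto and 2 and 0 in Tet1. The 26 pluripotency genes held 1 and 1, and the 10 fibroblast genes 0 and 1. Called bases do not show expression, so these groups give no check of the cell type.

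Promoter windows, from 250 bases before to 50 bases after a gene start, held few sites. They held 22 S sites (0.308%, 0.193% to 0.466%) and 9 L sites (0.233%, 0.107% to 0.442%), and covered 0.362% of the assembled chromosomes. Ndel1 and Ints1 had 2 S sites each in their windows, and Tnr had 2 L sites, genes singled out after their counts were seen. Neither list differed from the share of sequence beyond its counting error.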

How the data were processed

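Native H2A.X ChIP and SMRT sequencing were done on wild-type TT2 cells, with 2 samples for S and 2 for L per the labels' titles. Each pair shares 1 deposited list, so replicates could not be separated. Per the submitters' processing notes, mm10 was the genome build. The aligner, the caller and any filters are not given in the sources. Values were read by their keys, because the S list splits keys and values by tabs. The deposited score and identification score are on the caller's own scale. Coverage, as the authors deposited it, is an unnormalized signal that counts reads or passes that need not be different molecules. The IPD ratio, also deposited, divides the observed by a predicted duration on a linear scale. The deposited modified fraction is given at coverage of 11 or more. No filter was applied, and the lowest score was 20 and the lowest coverage 6.

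Computed here (Python 3.11.15, pandas 2.3.3, scipy 1.17.1) were exact Clopper-Pearson intervals for shares and binomial order-statistic intervals for medians, at 95%. They cover counting error only and are too narrow where sites cluster. Gaps, runs (gaps of at most 1 kb), windows of 100 kb and shared bases used position and strand. Scripts were tested on simulated data. Genes and promoters came from RefSeq tables of GRCm38.p6, with the chromosome coordinates of mm10 (49943 genes on chromosomes 1 to 19, X and Y). No genome sequence was used, and printed sequences are the deposited 41-base contexts, joined where they overlap.

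Members, gene lists and rules were chosen with earlier results of these data known. The named genes were the 10 with most sites in each list, those with the 10 largest runs of each list, those with runs of both lists, and up to 4 members per gene list with 2 or more sites. The 12-base word rule, the printed tight groups and the coverage classes were chosen after seeing the values. Not every gene named by these rules is reported here. Alternatives were score, coverage and identification score minimums, leaving out dense windows or contigs, coverage weights, 1 site per run and other matching distances.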

Additional observations from a re-analysis of the deposited data

How the results depend on the processing

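Of 91 alternative values for 14 results, 45 stayed close to the value reported and 43 moved. The other 3 changed sign in a result whose S and L intervals stood apart as reported. Sign changes in the other results were counted among the values that moved or stayed close. Values are S minus L unless stated, over whole lists, and the cause of each move was not tested. The share with a neighbour within 50 bases (5.88 points) changed sign at a score of 30 or more (-0.21) and at a coverage of 25 or more (-1.71), and was 0.24 at an identification score of 20 or more. The share with an identification score of 20 or more (4.31 points) changed sign at a coverage of 25 or more (-2.11), and was 1.12 at a score of 30 or more and 1.87 with S weighted to the coverage of L. The share of gaps over 200 bases was lower in S under each alternative with a value. Its difference was -9.17 points as reported and -0.92 at an identification score of 20 or more.

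At the minimums of score 30, coverage 25 and identification score 20, in this order, other values were as follows. The share in dense windows (-1.43 points) was -10.3, -34.5 and -8.13, with intervals apart at each, and also apart at -1.84 with windows of 20 or more sites. The share in genes (-0.16) was 2.88, 21.2 and 6.16, apart at the coverage minimum. The median span of runs (-21.5 bases) was -48, -202.5 and -156. The share of the L list shared with S (4.40%) was 15.3%, 34.3% and 16.6%. The modified fraction (2.2 points) was 14, 8 and 12.8, apart at the first and second. Genes with S sites only (63) were 6, 13 and 1, and genes with L sites only (8) were 0 under each. The AG share (-0.10 points) was -2.42 at the first and 2.77 at the last, and the IPD ratio (0.00) was 0.14 at the first and 0.09 at the coverage minimum.

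Median coverage (3) was 4 at the last of these and 4 on assembled chromosomes alone. With S weighted to the coverage of L, the IPD ratio was 0.16 and the fraction 5.0, and without dense windows the fraction was -1.2. The share of L shared with S was 0.172% without dense windows, 2.62% on assembled chromosomes, 0.196% at 1 site per run, 5.49% within 10 bases and 9.81% within 1 kb. Genes with S sites only were 9 at 1 site per run and 12 at 6 or more sites, and genes with L sites only were 0 and 1.

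Coverage of 11 or more is needed for a modified fraction. No paired analysis was possible because both replicates of a group are in 1 list, and for the same reason leaving out a replicate was not possible. Alternatives without meaning for a result were not run, such as the coverage minimum for the median coverage or the neighbour share with 1 site per run.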
